A study of Mus with 9 samples.

Results

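The genes described here are 7 genes of protein reabsorption in the proximal tubule, Lrp2, Cubn, Amn, Dab2, Clcn5, Ocrl and Fcgrt. They were named by symbol for what their products do, out of 54532 genes in the table, and the rule sets no threshold on a measured value. Kidney RNA was sequenced from 9 male C57BL/6 mice that formed 3 groups of 3, named 18 mo, 21 mo and 21 mo/O304. All 9 mice had 1 kidney removed at 18 months of age. The 18 mo mice were killed 1 week after that surgery. The 21 mo mice were injected intraperitoneally with saline for 12 weeks, and the 21 mo/O304 mice with O304, a small-molecule activator of the energy-sensing kinase AMPK, at 10 mg/kg/day for the same time. Age, time since surgery and the injections therefore cannot be told apart between the 18 mo mice and the others. 21 mo against 18 mo asks how the aged kidney differs, and 21 mo/O304 against 21 mo asks how the treated aged kidney differs from the untreated one. The same 21 mo libraries stand in both comparisons.

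Cells of the proximal tubule take filtered albumin, vitamin carriers and small proteins back from the primary urine by receptor-mediated endocytosis at their apical membrane. Megalin (Lrp2) and the cubilin-amnionless complex (Cubn and Amn) bind the proteins, the adaptor Dab2 links megalin to clathrin-coated pits, and the chloride-proton exchanger ClC-5 (Clcn5) and the phosphoinositide phosphatase OCRL (Ocrl) act in the endosomes that follow. The neonatal Fc receptor FcRn (Fcgrt) binds albumin and IgG in acidic endosomes and spares them from lysosomal breakdown.

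The libraries held 15636378 to 18396725 counts on genes, and all 7 genes passed the filter on low counts, with 15902 genes tested in all. The 21 mo libraries differed from each other more than those of the other groups did. Their biological coefficient of variation was 44.1%, against 18.1% among the 18 mo libraries and 20.6% among those given O304. Whole kidney was sequenced, so fewer cells of a type and less RNA per cell cannot be told apart in any value below.

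Set side by side per gene length, as fragments per kilobase scaled to the size of the library (FPKM), Fcgrt, Lrp2 and Amn were the most abundant of the 7 and Ocrl the least. Fcgrt had levels of 56.3 to 155 FPKM over the 9 libraries, Lrp2 18.3 to 187 FPKM and Amn 34.5 to 131 FPKM. These 3 genes changed places with each other from library to library, and their order does not exceed their spread. Dab2 followed at 30.4 to 76.5 FPKM, Cubn at 5.45 to 45.2 FPKM, Clcn5 at 6.76 to 13.3 FPKM and Ocrl at 1.30 to 2.13 FPKM. Dab2, Cubn, Clcn5 and Ocrl kept this order in 8 of 9 libraries. The exception was 21 mo replicate 3, where Lrp2 stood below Dab2 and Cubn below Clcn5. Among 22046 protein-coding genes, the FPKM rank of Lrp2 lay between 252 and 503 in 8 libraries and was 2234 in that library. From the lowest to the highest library the FPKM level spanned 10.2-fold for Lrp2 and 8.30-fold for Cubn, against 1.97-fold for Clcn5 and 1.65-fold for Ocrl.

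The receptors for filtered protein were the most variable of the 7 genes in the 21 mo kidneys. Lrp2 encodes megalin, the large endocytic receptor of the low-density lipoprotein receptor family, and lies on chromosome 2 from 69424340 to 69586065 on the minus strand (GRCm38). Its level, in CPM (counts scaled to library size and normalized between libraries by TMM), was 2045, 2481 and 2156 in the 18 mo mice and 3219, 1339.6 and 318 in the 21 mo mice. It was 2588, 2831 and 2221 CPM in the 21 mo/O304 mice. The 21 mo libraries lay on both sides of the 18 mo libraries, with replicate 1 at 1.45 times the 18 mo mean and replicate 3 at 0.143 times that mean. The fitted log2 fold change of Lrp2 was −0.45 (SE 0.64) for 21 mo against 18 mo, with an adjusted p of 0.673 by edgeR. Its 95% interval, −1.90 to 0.99, held large differences in both directions. Without 21 mo replicate 3 the log2 fold change was 0.018.

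Cubn encodes cubilin, the peripheral membrane receptor that binds albumin, transferrin and the intrinsic factor-vitamin B12 complex, and lies on the same chromosome from 13276338 to 13491813 on the minus strand. Its level was 415, 482 and 414 CPM in the 18 mo mice, 697, 342 and 84.6 CPM in the 21 mo mice and 605, 553 and 461 CPM in the 21 mo/O304 mice. As with Lrp2, 21 mo replicate 1 was the highest of all 9 libraries and 21 mo replicate 3 the lowest. The fitted log2 fold change of Cubn was −0.22 (SE 0.57) for 21 mo against 18 mo, with an adjusted p of 0.825 by edgeR, and 0.23 without 21 mo replicate 3.

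Amn encodes amnionless, the transmembrane partner that carries cubilin to the apical surface, and lies on chromosome 12 from 111271095 to 111276426 on the plus strand. Its level was 211, 236 and 249 CPM in the 18 mo mice, 162, 151 and 66.1 CPM in the 21 mo mice and 183, 167 and 169 CPM in the 21 mo/O304 mice. All 3 21 mo libraries were below all others, and the 21 mo/O304 libraries lay between the 21 mo and 18 mo libraries with no overlap on either side. The fitted log2 fold change of Amn was −0.88 (SE 0.29, 95% interval −1.53 to −0.22) for 21 mo against 18 mo, with an adjusted p of 0.111 by edgeR. The exact permutation test gave p = 0.1, the smallest that 3 mice against 3 allow. Without 21 mo replicate 1 the log2 fold change was −1.08, with an adjusted p of 0.0337 by edgeR, and without 21 mo replicate 3 it was −0.59, with an adjusted p of 0.0625. DESeq2 on all libraries gave an adjusted p of 0.0430 for Amn.

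**Figure D1:**
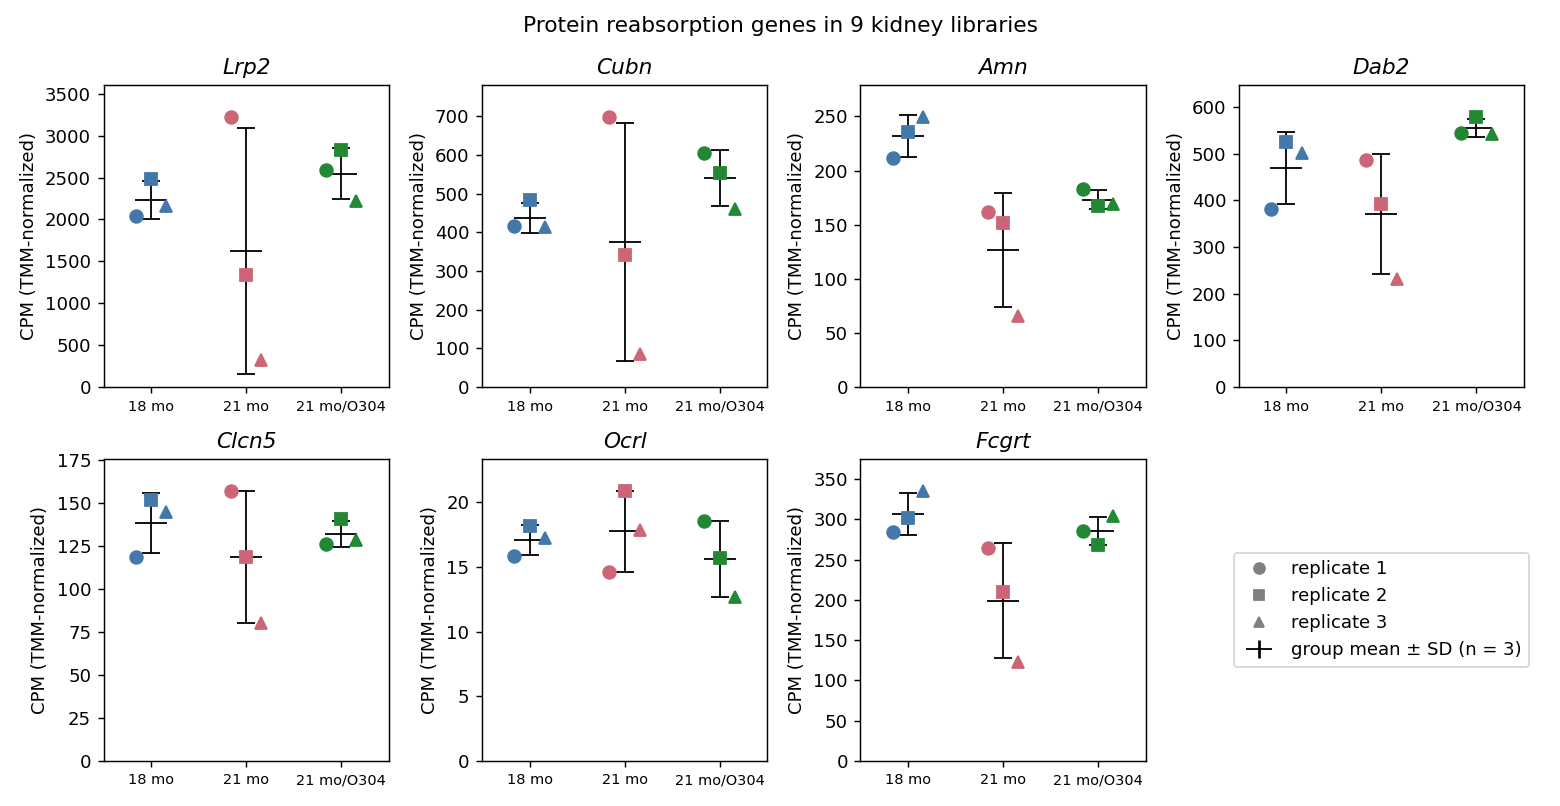
Level of each gene (CPM, TMM-normalized, linear axes from 0) in each of the 9 libraries, with the group mean and SD (n = 3). In the 21 mo group replicate 1 is the highest and replicate 3 the lowest for 6 genes, and Ocrl is the exception.

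Dab2, the cytoplasmic adaptor that binds the tails of megalin and clathrin, lies on chromosome 15 from 6299788 to 6440712 on the plus strand. Its level was 382, 525 and 502 CPM in the 18 mo mice, 487, 393 and 232 CPM in the 21 mo mice and 544, 578 and 542 CPM in the 21 mo/O304 mice. The 21 mo/O304 libraries were above every library of both other groups and close together, with a coefficient of variation of 3.61%. The fitted log2 fold change of Dab2 was −0.34 (SE 0.27) for 21 mo against 18 mo, with an adjusted p of 0.432 by edgeR. Against the 21 mo mice, the 21 mo/O304 difference was 0.58 (SE 0.27, 95% interval −0.02 to 1.19), with an adjusted p of 0.253. Without 21 mo replicate 1 that difference was 0.82, with an adjusted p of 0.0465 by edgeR, and without 21 mo replicate 3 it was 0.34, with an adjusted p of 0.406.

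Clcn5 and Ocrl are the genes mutated in Dent disease, an inherited loss of tubular protein reabsorption, and both lie on the X chromosome. Clcn5 lies from 7153810 to 7319358 on the minus strand and Ocrl from 47912387 to 47965868 on the plus strand. Clcn5 was at 118, 152 and 145 CPM in the 18 mo mice, 157, 119 and 80.5 CPM in the 21 mo mice and 127, 141 and 129 CPM in the 21 mo/O304 mice. The groups overlapped, and 21 mo replicate 3 was again the lowest library. Its fitted log2 fold change was −0.22 (SE 0.22) for 21 mo against 18 mo, with an adjusted p of 0.544 by edgeR.

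Ocrl was at 15.9, 18.2 and 17.3 CPM in the 18 mo mice, 14.6, 20.9 and 17.8 CPM in the 21 mo mice and 18.6, 15.7 and 12.7 CPM in the 21 mo/O304 mice. It was the member of the 7 that did not have its lowest value in 21 mo replicate 3, where it stood at 1.04 times the 18 mo mean. Its fitted log2 fold change was 0.06 (SE 0.18, 95% interval −0.36 to 0.47) for 21 mo against 18 mo, with an adjusted p of 0.871 by edgeR. That interval is narrower than those of the other 6 genes. Its sign was not stable, since the log2 fold change was −0.092 without 21 mo replicate 2 and −0.0031 without 18 mo replicate 1.

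Fcgrt, the heavy chain of FcRn, lies on chromosome 7 from 45092990 to 45103851 on the minus strand. Its level was 284, 302 and 335 CPM in the 18 mo mice, 264, 210.2 and 123 CPM in the 21 mo mice and 285, 269 and 304.01 CPM in the 21 mo/O304 mice. All 21 mo libraries were below all libraries of both other groups, which overlapped each other. The fitted log2 fold change of Fcgrt was −0.63 (SE 0.25, 95% interval −1.19 to −0.06) for 21 mo against 18 mo, with an adjusted p of 0.160 by edgeR. Between 21 mo/O304 and 21 mo it was 0.52 (SE 0.25, 95% interval −0.04 to 1.09), with an adjusted p of 0.264. Without 21 mo replicate 1 these differences were −0.86 and 0.77, with adjusted p-values of 0.0260 and 0.0404 by edgeR. They were −0.39 and 0.28 without 21 mo replicate 3, with adjusted p-values of 0.166 and 0.412 by edgeR.

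The other chain of FcRn is β2-microglobulin (B2m), which is also the light chain of MHC class I in most cell types. B2m was at 252, 257 and 344 CPM in the 18 mo mice, 522, 782 and 717 CPM in the 21 mo mice and 336, 532 and 388 CPM in the 21 mo/O304 mice. All 21 mo libraries were above all 18 mo libraries, the opposite order to Fcgrt. Its fitted log2 fold change was 1.24 (SE 0.25) for 21 mo against 18 mo, with an adjusted p of 0.0626 by edgeR, and −0.69 (SE 0.25) for 21 mo/O304 against 21 mo, with an adjusted p of 0.193.

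Taking the 7 genes as a list, none passed an adjusted p of 0.05 in edgeR in any comparison. For 21 mo against 18 mo, 0.0189% of all genes tested did. At an unadjusted p under 0.05, 2 of 7 genes were lower in the 21 mo mice, Amn and Fcgrt, where 12% of all genes tested were lower at that level. DESeq2 called 1 of the 7 in this comparison (12.3% of all genes), limma voom with quality weights 3 (52.9%) and limma-trend on log2(FPKM + 1) 0 (0.0209%). On the libraries without 21 mo replicate 1, edgeR called 2 of the 7, beside 25.4% of all genes. The groups did not overlap, with 21 mo lower, for the same 2 genes, against 15.3% of all genes tested. The median fitted log2 fold change of the 7 genes was −0.34, beside 0.03 over all genes.

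In the comparison of 21 mo/O304 with 21 mo, no gene among all 15902 passed the threshold in edgeR (0%), and none of the 7 had an unadjusted p under 0.05, beside 20.7% of all genes tested. DESeq2 called 0 of the 7 here (6.07% of all genes), limma-trend on FPKM 0 (0%) and limma voom with quality weights 5 (41.1%). With 21 mo replicate 1 left out, edgeR called 2 of the 7, beside 23.1% of all genes. For Amn, Dab2 and Fcgrt every 21 mo/O304 library was above every 21 mo library, against 10.8% of all genes tested with such an order. The fitted log2 fold change was 0.65 (SE 0.64) for Lrp2, with an adjusted p of 0.557 by edgeR, and 0.53 (SE 0.57) for Cubn, with an adjusted p of 0.591. These values were 0.17 and 0.062 without 21 mo replicate 3, and 1.61 and 1.33 without 21 mo replicate 1, none of which passed the threshold. Amn stood at 0.45 (SE 0.29, and 0.15 without 21 mo replicate 3), with an adjusted p of 0.368. Clcn5 stood at 0.15 (SE 0.22, and −0.055 without 21 mo replicate 3), with an adjusted p of 0.697, and Ocrl at −0.18 (SE 0.18), with an adjusted p of 0.564. The median of the 7 was 0.52, beside −0.02 over all genes. For Lrp2 the highest-to-lowest ratio in CPM was 1.27 among the treated libraries, against 10.1 in the 21 mo and 1.21 in the 18 mo group. The ratio was also smaller in the treated than in the 21 mo mice for Cubn, Amn, Dab2, Clcn5 and Fcgrt. For Ocrl it was not (1.46 against 1.43).

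Set against the 18 mo mice, the 21 mo/O304 mice had a median log2 fold change of −0.07 over the 7 genes, beside 0.00 over all genes. None of the 7 was called in edgeR, where 0% of all genes were, and none had an unadjusted p under 0.05 (9.66% of all genes). DESeq2 called 0 of the 7 (0.869% of all genes), limma voom with quality weights 0 (2.61%) and limma-trend on FPKM 0 (0%). Amn was lower with no overlap (13.3% of all genes) and stood at −0.42 on the log2 scale (SE 0.29, adjusted p = 0.681 by edgeR). Dab2 was higher with no overlap (13.2% of all genes) at 0.24 (SE 0.27, adjusted p = 0.818 by edgeR). For Lrp2 the 95% interval ran from −1.25 to 1.63.

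**Figure D2:**
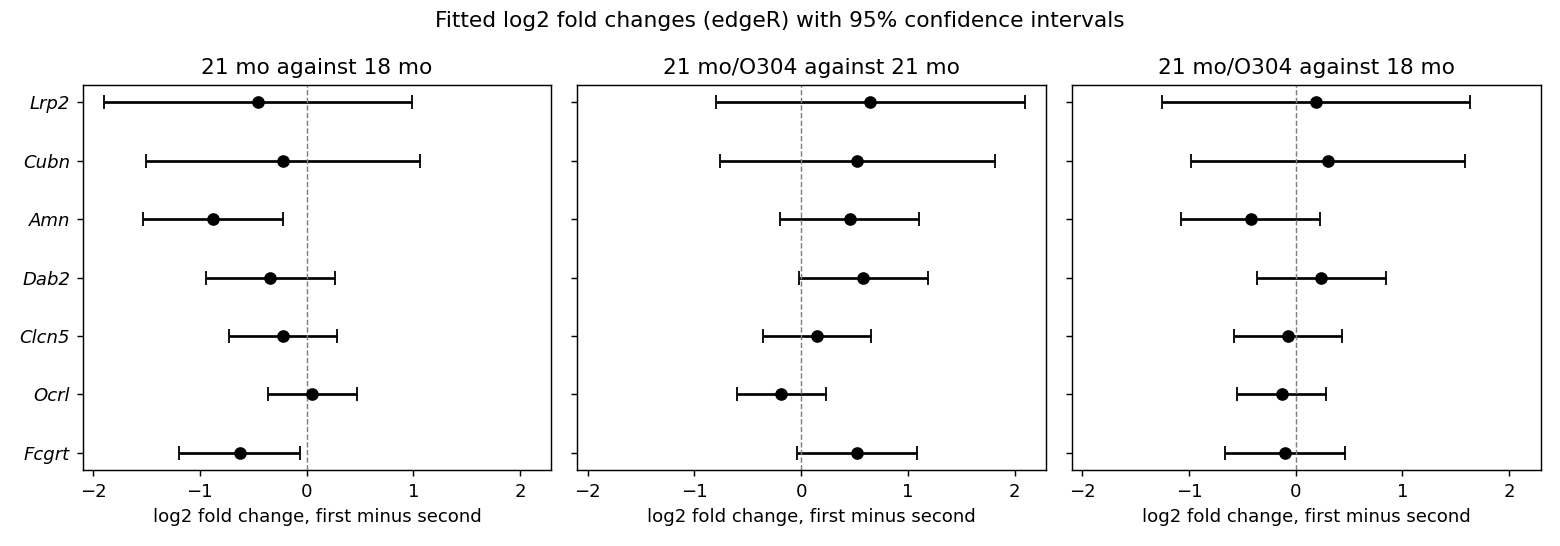
Fitted log2 fold changes of the 7 genes (edgeR, points) with 95% confidence intervals (bars) in the 3 comparisons; the dashed line marks no difference. The intervals of Amn and Fcgrt for 21 mo against 18 mo lie below 0, and those of Lrp2 and Cubn are the widest.

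The low values in 21 mo replicate 3 stood beside low values of other proximal tubule genes. A list of 18 genes of proximal tubule transport and metabolism summed to 22124 to 30079 CPM in the 18 mo mice, 2742 to 21968 CPM in the 21 mo mice and 24815 to 29379 CPM in the 21 mo/O304 mice. On the log2 scale, relative to the 18 mo mean, the sum was −0.26 in 21 mo replicate 1, −1.31 in replicate 2 and −3.26 in replicate 3. None of the 18 genes was called by edgeR for 21 mo against 18 mo, 4 were lower at an unadjusted p under 0.05 (12% of all genes), 7 were lower with no overlap (15.3% of all genes), and their median log2 fold change was −1.06. Slc34a1, the apical sodium-phosphate cotransporter, was at a mean of 5688 ± 950 CPM (SD, n = 3) in the 18 mo mice and 1932 ± 1523 CPM in the 21 mo mice (log2 fold change −1.56, adjusted p = 0.154 by edgeR).

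Each of the 7 genes was also set relative to that sum, as a log2 difference from the 18 mo mean of the same ratio. With libraries scaled to the sum in edgeR, the median log2 fold change of all genes for 21 mo against 18 mo was 2.13. That group value does not place a gene within a single library. A gene with unchanged CPM would stand at the negative of the log2 value of the sum. The sum was at −0.26, −1.31 and −3.26 in 21 mo replicates 1, 2 and 3. As a ratio to the sum, Cubn was at 0.94, 0.96 and 0.90 in the 3 21 mo libraries and Lrp2 at 0.80, 0.58 and 0.46. Both were above every 18 mo library, and Cubn took nearly the same value in 3 kidneys whose summed level differed widely. Dab2 was at 0.33, 1.07 and 2.26, Clcn5 at 0.45, 1.09 and 2.49, and Ocrl at 0.04, 1.60 and 3.32. Amn was at −0.26, 0.70 and 1.46 and Fcgrt at 0.05, 0.77 and 1.95, both overlapping the 18 mo libraries, as did Ocrl. The ratios of these 5 genes were greatest in the library whose sum, their shared denominator, was lowest. Lrp2, Cubn, Dab2 and Clcn5 were higher than in the 18 mo mice with no overlap, 4 of 7 genes against 42.8% of all genes tested on the same scale. The exact permutation p was 0.1 for each of the 4. Lrp2, Cubn, Clcn5 and Fcgrt were lower in the 21 mo/O304 than in the 21 mo mice with no overlap on this scale, 4 of 7 against 56.2% of all genes. An alternative chosen after seeing the data took the mean log2 level of the 18 genes in place of their sum. Relative to that mean, Cubn had a 21 mo mean of 0.80 and Lrp2 of 0.48. Lrp2, Cubn, Dab2 and Clcn5 again did not overlap between the 21 mo and 18 mo mice. Between the 21 mo/O304 and 21 mo mice Lrp2, Cubn and Clcn5 again did not overlap, but Fcgrt did.

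**Figure D3:**
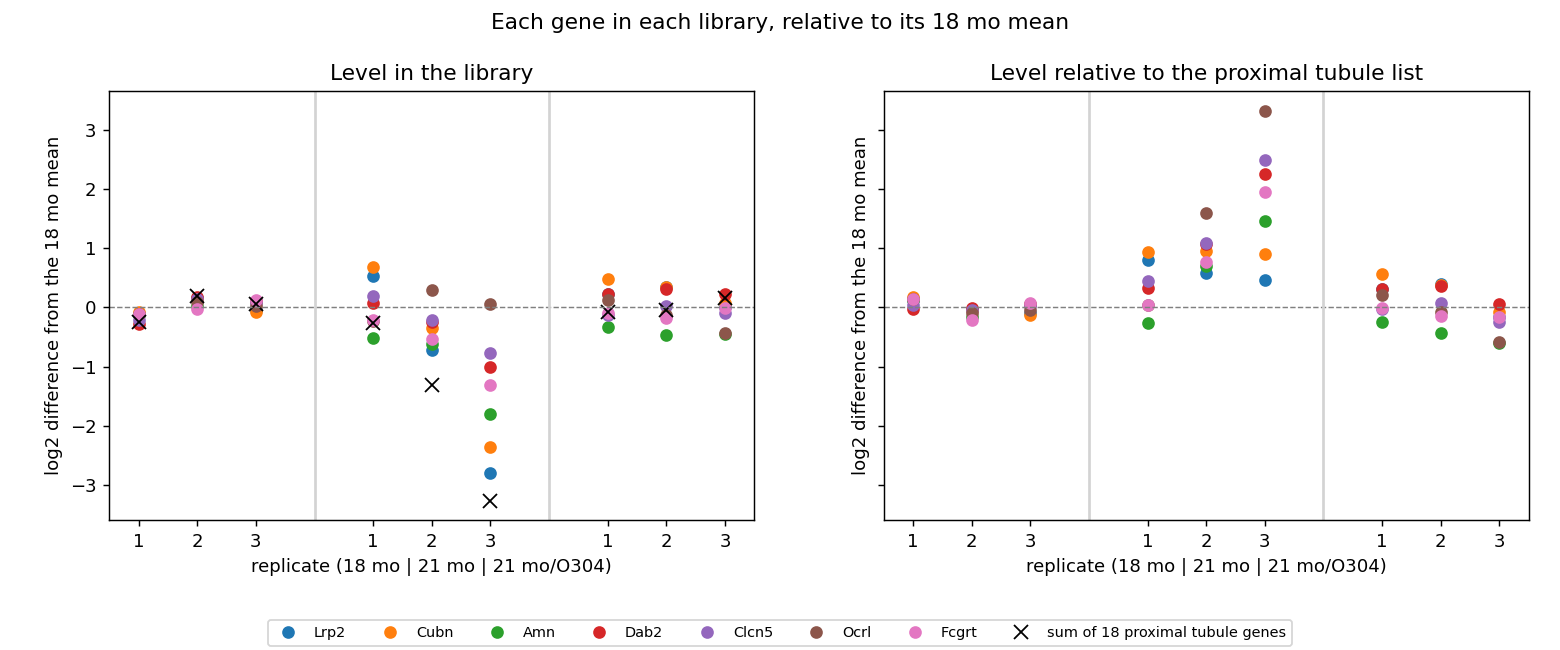
Each gene in each library as a log2 difference from its 18 mo mean, as a level in the library (left, with the sum of 18 proximal tubule genes as crosses) and relative to that sum (right). On the left the genes other than Ocrl lie below 0 in 21 mo replicate 3, where the sum is at −3.26, and on the right Lrp2 and Cubn lie between 0.46 and 0.96 in the 3 21 mo libraries.

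Ratios within a library compare partners without any scaling between libraries. The Cubn to Lrp2 ratio of FPKM was 0.227, 0.217 and 0.215 in the 18 mo mice, 0.242, 0.285 and 0.297 in the 21 mo mice and 0.261, 0.218 and 0.232 in the 21 mo/O304 mice. The 21 mo ratios were all above the 18 mo ratios, by 0.32 on the log2 scale (exact permutation p = 0.1, the smallest possible), while the levels of both genes spanned a wide range. The Amn to Cubn ratio of FPKM was 4.12, 3.96 and 4.88 in the 18 mo mice, 1.88, 3.59 and 6.33 in the 21 mo mice and 2.45, 2.45 and 2.97 in the 21 mo/O304 mice. All 21 mo/O304 ratios were below all 18 mo ratios, by 0.72 on the log2 scale (log2 difference −0.72, exact permutation p = 0.1), and the 21 mo ratios spread around both. This order was not particular to Amn and Cubn. Between the same groups, the ratios to Lrp2 of Amn (−0.61), Clcn5 (−0.25) and Ocrl (−0.34) were also lower with no overlap (exact permutation p = 0.1 each). The ratios to Lrp2 of Cubn, Dab2 and Fcgrt overlapped. The share of all gene pairs with such an order was not computed. In CPM, Amn was below its 18 mo libraries in all 3 treated mice and Cubn above its own in 2 of 3, and neither gene passed the test between these groups.

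**Figure D4:**
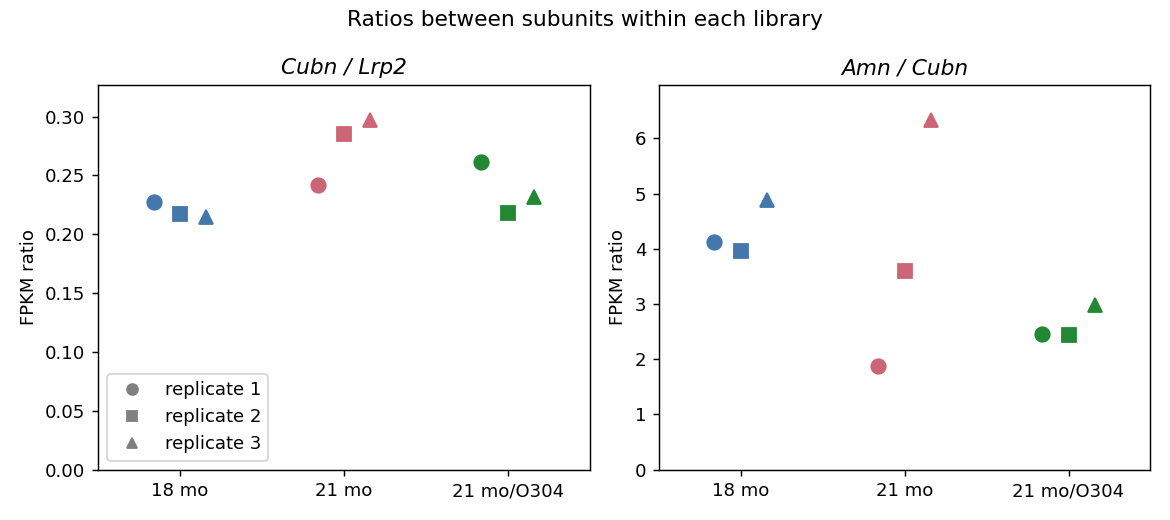
FPKM ratio of Cubn to Lrp2 (left) and of Amn to Cubn (right) in each of the 9 libraries, on linear axes from 0. Every 21 mo library is above every 18 mo library on the left, and every 21 mo/O304 library is below every 18 mo library on the right.

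Over the 9 libraries the log2 CPM of Lrp2 and Cubn moved together (Pearson r = 0.991, Spearman rho = 0.967), and so did Amn and Fcgrt (r = 0.955, rho = 0.883). Lrp2 against Fcgrt had an r of 0.917 but a rho of 0.233, and Lrp2 against Amn an r of 0.851 and a rho of 0.183. Ocrl had an r of −0.34 to −0.09 with the other 6 genes. These are descriptions over libraries that share 1 scaling and include 21 mo replicate 3. Among the genes most like Lrp2 by Pearson r were Far1 and Glyr1 (0.993 each), and those most like Cubn were Braf (0.997), Cyp2j11 (0.996) and Lrpprc (0.995). Amn was most like Lrp11 (0.988), Espn (0.987) and Sema4g (0.986), and Dab2 most like Sfxn1, Slc22a5 and Dgkd. Clcn5 was most like Itpr2, Olfm3 and Acaa2, Ocrl most like Cfap54, E2f3 and Afap1, and Fcgrt most like Tmem8, Aspdh and Fbxo40.

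The wider endocytic pathway, a list of 42 genes for clathrin coats, adaptors, endosomal sorting and recycling, had summed levels that overlapped between all groups. Its summed level was 5626 to 6082 CPM in the 18 mo mice, 4952 to 6373 CPM in the 21 mo mice and 5972 to 6037 CPM in the 21 mo/O304 mice. Of the 41 genes tested, none was called by edgeR in any comparison. For 21 mo against 18 mo, 4 were higher and 6 lower at an unadjusted p under 0.05, beside 26.1% of all genes in either direction, and the median log2 fold change was −0.04. In the same comparison 5 were higher and 7 lower with no overlap, beside 28.8% of all genes in either direction. DESeq2 called 6 of the list, beside 12.3% of all genes. With O304, against 21 mo, 3 were higher and 5 lower, beside 20.7% of all genes, with a median of 0.11. Without 21 mo replicate 1, edgeR called 10 of the list in each of these 2 comparisons, beside 25.4% and 23.1% of all genes. Cltb, a clathrin light chain, was at 127 ± 9.41 CPM (SD, n = 3) in the 18 mo mice and 81.9 ± 5.54 CPM in the 21 mo mice (log2 fold change −0.63, adjusted p = 0.0626 by edgeR), with no overlap. Ehd1, an ATPase of endocytic recycling, was at 204 ± 9.55 CPM and 129 ± 26.8 CPM (log2 fold change −0.66, adjusted p = 0.0718 by edgeR), also with no overlap, and at 168 ± 0.563 CPM in the 21 mo/O304 mice. Gipc1, which binds the tail of megalin, and Snx9, a membrane-bending sorting nexin, had log2 fold changes of −0.69 and 0.40 for 21 mo/O304 against 21 mo, with adjusted p-values of 0.180 and 0.196 by edgeR.

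Genes of the brush border, the microvilli that carry megalin and cubilin, had a median log2 fold change of −0.40 for 21 mo against 18 mo over 14 genes. None was called by edgeR, 3 were lower at an unadjusted p under 0.05 (12% of all genes) and 7 were lower with no overlap (15.3% of all genes). Slc9a3r1, the scaffold NHERF1, was at 477 ± 39.0 CPM in the 18 mo mice and 276 ± 78.0 CPM in the 21 mo mice (log2 fold change −0.79, adjusted p = 0.0827 by edgeR). Transcription factors of the proximal tubule had a median of −0.51 over 8 genes, with 0 called by edgeR and 3 lower at an unadjusted p under 0.05 (12% of all genes). Esrra, a nuclear receptor of mitochondrial gene expression, was at 221 ± 10.7 CPM in the 18 mo mice, 94.9 ± 26.8 CPM in the 21 mo mice and 140 ± 3.97 CPM in the 21 mo/O304 mice. Its log2 fold change was −1.22 for 21 mo against 18 mo, with an adjusted p of 0.0626 by edgeR.

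The summed markers of injured tubule, of macrophages, of fibroblasts and of podocytes were highest in 21 mo replicate 3. Those of adipocytes, lymphocytes, endothelium and distal nephron were not. The 12 tubule injury genes summed to 1110 to 1238 CPM in the 18 mo mice and to 1773, 14340 and 17497 CPM in 21 mo replicates 1, 2 and 3, and to 1176 to 1650 CPM in the 21 mo/O304 mice. Of the 12, 0 were called by edgeR for 21 mo against 18 mo and 10 were higher at an unadjusted p under 0.05 (14% of all genes), with a median log2 fold change of 3.05. The 11 macrophage genes summed to 322 to 546 CPM in the 18 mo mice, 816 to 3882 CPM in the 21 mo mice and 614 to 658 CPM in the 21 mo/O304 mice, and 10 of 11 were higher in the 21 mo than in the 18 mo mice with no overlap (13.5% of all genes). The 9 fibroblast genes summed to 207 to 312, 165 to 1528 and 127 to 319 CPM in the 18 mo, 21 mo and 21 mo/O304 mice. The adipocyte genes summed to 0.123 to 4.75 CPM in the 18 mo mice, 1.14 to 2.57 CPM in the 21 mo mice and 5.96 to 70.8 CPM in the 21 mo/O304 mice. The lymphocyte genes summed to 22.6 to 34.3 CPM in the 18 mo mice and 38.8 to 62.8 CPM in the 21 mo mice. These sums did not overlap, and those of the 21 mo/O304 mice were 32.9 to 81.1 CPM. Of the 8 lymphocyte genes tested for 21 mo against 18 mo, 6 were higher and 2 lower by fitted log2 fold change. Among them only Ptprc did not overlap, at 13.56 to 19.91 CPM in the 18 mo and 29.78 to 42.37 CPM in the 21 mo mice. Whether the sum without Ptprc separates these groups was not tested. Summed levels of endothelial, podocyte and distal nephron markers overlapped between all groups. The podocyte sum was 233, 221 and 637 CPM in 21 mo replicates 1, 2 and 3. It was 215 to 320 CPM in the 18 mo mice and 236 to 397 CPM in the 21 mo/O304 mice. The adipocyte genes Adipoq and Retn had 0 counts in 3 of 9 libraries each. The part of any of these cells in the levels of the 7 genes was not tested. In 21 mo replicate 1, where the injury sum was lowest of its group, Amn, Ocrl and Fcgrt were below all 18 mo libraries. In the same library Lrp2, Cubn and Clcn5 were above all 18 mo libraries, and Dab2 lay within their range.

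**Figure D5:**
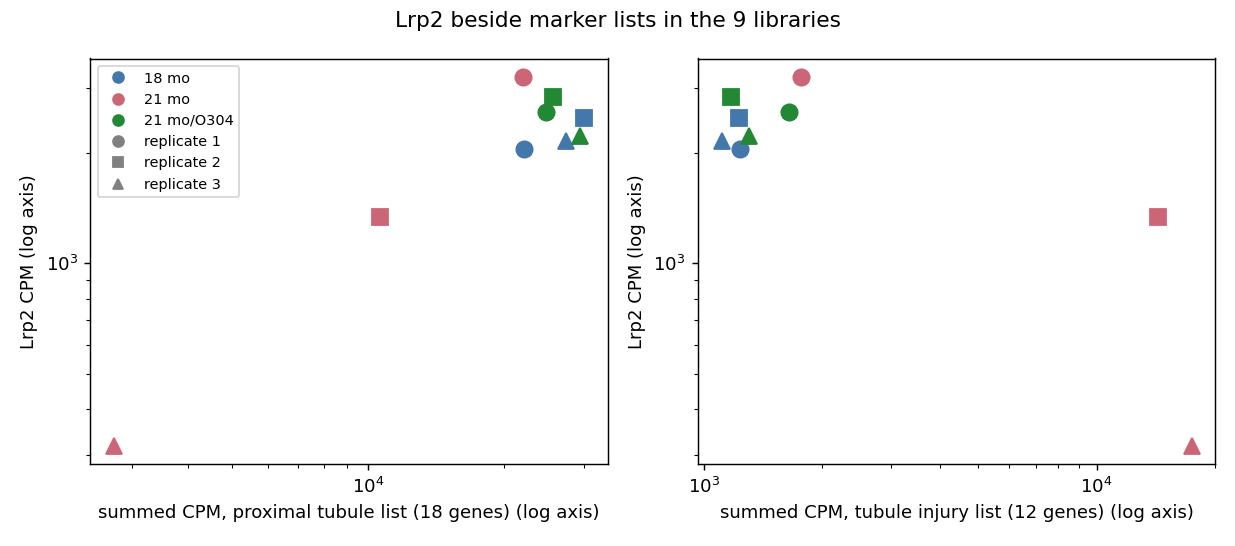
Lrp2 level (CPM) against the summed CPM of the proximal tubule list (left) and of the tubule injury list (right) in the 9 libraries, all on log axes. 21 mo replicate 3, at 318 CPM of Lrp2, has the lowest proximal tubule sum (2742 CPM) and the highest injury sum (17497 CPM), and 21 mo replicate 1 has the highest Lrp2 level (3219 CPM).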

How the data were processed

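RNA sequencing data of kidneys from 9 mice were analysed, each mouse being 1 library. The submitters' processing notes name HISAT2 2.0.5 for alignment, featureCounts 1.5.0-p3 for counting and the build GRCm38. Raw, whole-number counts per gene were deposited, with no normalization. Beside them the authors gave FPKM, that is counts divided by gene length and library size. Fold changes and p-values of the authors' own comparisons, also deposited, were not used. Whether counting used strand, and how reads mapping to several places were treated, is not given in the sources used here. Annotated genes that overlap Cubn, Dab2, Clcn5 or Fcgrt held at most 4 counts in any library.

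Groups were taken from the sample labels. Genes were filtered with filterByExpr (minimum count 10, minimum total 15), normalized by TMM and tested by quasi-likelihood in edgeR 4.0.16 under R 4.3.3, on all 9 libraries with 3 group means and 6 residual degrees of freedom. Tests were two-sided, with Benjamini-Hochberg adjustment over 15902 genes and a threshold of 0.05. Log2 CPM used a prior count of 2. Single ratios were tested with the two-sided exact permutation test, which cannot go below 0.1 for 3 mice against 3. The analysis was tested on simulated counts. At 15636378 to 18396725 counts per library, 1 count was worth at most 0.0669 CPM, so that the spread between mice limited precision for these genes.

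The 7 genes and all lists were chosen with earlier results of these data known. The genes named were the 7, up to 3 genes per list with the smallest edgeR p in each of the first 2 comparisons, from which the text gives examples, and for each of the 7 the 3 genes with the highest Pearson r. Results that need a withheld item are not reported here. The alternatives were DESeq2 1.42.0, other normalizations and filters, only the 6 libraries compared, a replicate block, limma 3.58.1 with voom quality weights, limma-trend on log2(FPKM + 1) and log2(FPKM + 0.1) at a mean FPKM of at least 0.5, and leaving out each library.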

Additional observations from a re-analysis of the deposited data

How the results depend on the processing

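Over 21 log2 fold changes (7 genes in 3 comparisons) and 20 alternatives each, 386 of 420 values kept their direction and their side of the threshold, 15 newly passed it in the same direction and 19 changed sign, 3 of which also passed it. With libraries scaled to the proximal tubule list, which moved the median of all genes to 2.13 (21 mo against 18 mo) and −2.15 (21 mo/O304 against 21 mo), 6 genes changed sign in each comparison. For 21 mo against 18 mo they were Lrp2 (0.62), Cubn (0.92), Amn (0.79), Dab2 (1.44), Clcn5 (1.60) and Fcgrt (1.13), all below that median. In 21 mo/O304 against 21 mo they were Lrp2 (−0.42), Cubn (−0.62), Amn (−1.22), Dab2 (−1.19), Clcn5 (−1.67) and Fcgrt (−1.24). Under this scaling 3 of the 7 genes and 35 endocytic pathway genes were called in the former comparison (69.6% of all genes), and 2 and 36 in the latter (71.5%).

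For 21 mo against 18 mo, DESeq2 called 1 of the 7 genes and 6 pathway genes (12.3% of all genes), voom with quality weights 3 and 25 (52.9%), and the test on every gene with at least 1 count 0 and 1 (2.04%). For 21 mo/O304 against 21 mo, voom with quality weights called 5 and 20 (41.1%). For 21 mo/O304 against 18 mo it called 0 and 2 (2.61%), and no other alternative called any of either list. The cause of these differences was not tested.

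Leaving out 1 library at a time gave 0 to 2 of the 7 genes and 0 to 10 pathway genes in each of the first 2 comparisons, with the upper values without 21 mo replicate 1 (25.4% and 23.1% of all genes). For 21 mo against 18 mo the log2 fold change ranged from −1.41 to 0.018 for Lrp2, from −1.02 to 0.23 for Cubn and from −0.092 to 0.19 for Ocrl. Between 21 mo/O304 and 21 mo it ranged from −0.055 to 0.40 for Clcn5, from 0.17 to 1.61 for Lrp2 and from 0.062 to 1.33 for Cubn. Between 21 mo/O304 and 18 mo it ranged from −0.17 to 0.0032 for Clcn5 and from −0.27 to 0.015 for Ocrl. The spread of the 21 mo libraries therefore limits both comparisons that use them.

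The sample labels do not say whether mice with the same replicate number shared anything else. Deviations of libraries with the same number correlated at −0.13 to 0.17 over 9 pairs, 5 of them over 0.1. Those of libraries with different numbers correlated at −0.26 to 0.20. Of the 9 libraries, 4 were most like one of their own number. With the replicate block, 0 of the 7 genes and 0 pathway genes were called in every comparison, as without it.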
